A study of Drosophila melanogaster with 31 samples.

Results

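Pelota, encoded by pelo, is the factor that opens ribosomes stalled on an mRNA, and the data described here show which mRNAs were found on polysomes in ovaries homozygous for the pelo1 allele. They comprise 4 of the 31 libraries of a poly(A) RNA-seq series of Drosophila melanogaster ovaries, chosen by their labels: 2 polysome libraries and the 2 input libraries made from the same preparations, all from pelo1/pelo1 homozygotes dissected 1 to 3 days after eclosion. Polysome samples had been loaded on a gradient before RNA was taken, and each input is the total mRNA that belongs to a polysome sample. The same pair of fractions from 2 other genotypes, in 2 preparations each, was used to estimate the spread and for comparison. These were tst RNAi ovaries (UAS-Dcr2;nosGAL4>tst RNAi, a knockdown of the Ski2 helicase gene tst driven by a nanos promoter, which is active in the germline) and Adult Control ovaries. The control preparations differ in genotype: preparation 1 is w[1118] with the insertions GAL4-nos.NGT and UAS-Dcr-2.D, both marked w[+mC], and no knockdown construct in its label, and preparation 2 is the pelo1/CyO heterozygote, so it carries the pelo1 allele in 1 copy. All 12 libraries are from whole ovaries of the same age, so germ cells, follicle cells and the muscle sheath were measured together.

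A polysome is an mRNA with several ribosomes on it, and the ratio of polysome to input RNA is a common measure of how much of an mRNA is being translated. When a ribosome stalls, Pelota and its GTPase partner Hbs1 enter the empty site, and together with the ATPase Pixie split the ribosome so that the exosome, fed by the Ski complex, can degrade the mRNA. In the fly ovary, nurse cells make large stores of maternal mRNA, many of which are kept out of translation by repressors until late oogenesis or egg activation, while the follicle cells around them make yolk, vitelline membrane and chorion proteins at a high rate.

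Values are TPM, that is, transcript shares corrected for length. The ratios below are differences of log2(TPM + 1) between a polysome library and its input, after each library was set to its own median over the 8572 genes tested. A ratio of 0 is therefore a gene that stood at the same distance from the library median in both fractions. On that log2 scale the polysome medians of preparations 1 and 2 were 4.77 and 4.69, and the input medians were 4.98 and 5.15. A gene with equal TPM in both fractions therefore has a positive ratio, and ratios of weakly expressed genes are drawn towards that positive value and not towards 0. Control medians were 4.78 and 4.28 in polysomes and 5.36 and 5.27 in inputs, so this shift was larger in control. In tst RNAi they were 5.05 and 4.87 in polysomes and 4.91 and 4.83 in inputs, so the shift was negative there. In the polysome libraries 7958 and 7963 genes reached 1 TPM, and in the inputs 8090 and 8197. Depth is unknown because TPM keep no read counts. The labels do not say whether preparations were separate animals, so p values measure only the spread between these samples.

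The pelo transcript was present in both fractions, at 39.0 and 33.9 TPM in polysomes and 33.1 and 34.4 TPM in inputs (log2 ratio 0.44, SE 0.26, limma adjusted p = 0.284). Inputs of the other genotypes had more of it, 137 and 76.9 TPM in control and 75.1 and 77.9 TPM in tst RNAi. The files do not state how pelo1 alters the gene (2L:9700810-9708883), and whether the allele accounts for the lower level was not tested. Markers of the ovary's cell types were found in every pelo library. The 5 germline markers (vas, nos, osk, orb and bam) summed to 479 and 409 TPM in polysomes and 893 and 1084 TPM in inputs. The 5 follicle cell markers (tj, Fas3, Yp1, Vm26Ab and Cp36) summed to 22363 and 18736 TPM in polysomes and 12140 and 9876 TPM in inputs. The germline sum was thus lower and the follicle cell sum higher in both polysome libraries, with no overlap. The follicle cell sum was nearly all Yp1, Vm26Ab and Cp36. The other two markers of these cells did not follow it: tj was at 73.6 and 73.3 TPM in polysomes and 86.7 and 110.2 TPM in inputs, and Fas3, at 25.1 and 18.7 TPM against 22.7 and 38.5 TPM, overlapped. The 5 muscle sheath markers, at 3219 and 2306 TPM in polysomes against 2354 and 3103 TPM in inputs, overlapped between fractions. So did the 4 fat body markers, at 195 and 191 TPM in polysomes and 167 and 207 TPM in inputs, nearly all of it Tsf1, with the defining gene Fbp1 at or near 0. The 5 hemocyte markers summed to 617 and 398 TPM in polysomes and 251 and 392 TPM in inputs, mostly SPARC, which leaves the fractions barely apart. In such bulk libraries fewer cells of a type and less RNA per cell cannot be told apart, and the part that unequal contributions of cell types have in the ratios below was not tested.

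Across all genes, 1 transcript passed the test of polysome against input in pelo ovaries (limma with the preparation as a block, adjusted p under 0.05, 0.0117% of genes tested). At an unadjusted p under 0.05 there were 2540 genes, 1561 with a higher and 979 with a lower ratio, and at an adjusted p under 0.1 there were 1346, 786 higher and 560 lower. The count depended on which libraries supplied the spread. It was 2672 (1744 higher, 928 lower) without control preparation 1 and 2666 (1733 higher, 933 lower) without control preparation 2, but 0 without either tst RNAi preparation or without pelo preparation 2, and 1 without pelo preparation 1, a different gene with a higher ratio. The control preparations differ in genotype and correlated across genes at 0.51 in their ratios, and the pelo preparations at 0.506. It also depended on the pairing: same-numbered pelo libraries deviated from their group means in opposite directions (correlation -0.449), and with the pelo numbers crossed, an alternative chosen after seeing the data, 1183 genes passed, 626 higher and 557 lower. Without centring on library medians 506 genes passed, 52 higher and 454 lower, against the median ratio of all genes of -0.18 on that scale and 0.15 after centring.

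Direction was shared by both pelo preparations for 6151 of the 8567 genes that carry a usable name. Both ratios were above 0 for 3867 genes (45.1%) and below 0 for 2284 (26.7%). These counts rest on the pairing as labelled. A difference of at least 2-fold in both preparations was reached by 120 genes towards polysomes (1.4%) and 67 genes towards input (0.782%). With the pelo numbers crossed these were 170 and 189 genes, and with each preparation centred on its median ratio 53 and 138. As labelled, the same counts were 7 and 18 genes in tst RNAi and 529 and 110 in control. Centring raises control ratios more than pelo ratios and lowers those of tst RNAi, so these counts do not compare genotypes on equal terms. On values as deposited the pelo counts were 7 and 241. In the fits that leave out 1 control preparation, 20.2% of genes passed as higher and 10.8% as lower in both fits. The 1 control preparation left in each adds nothing to the spread, so both fits take it from the same pelo and tst RNAi preparations. Passing in both is therefore nearly 1 test and not 2, and variation between control preparations has no part in it. The shares of all genes given here are the background for the counts given below for gene groups. No gene named from here on passed the test over all 12 libraries except lncRNA:CR45102.

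**Figure D1:**
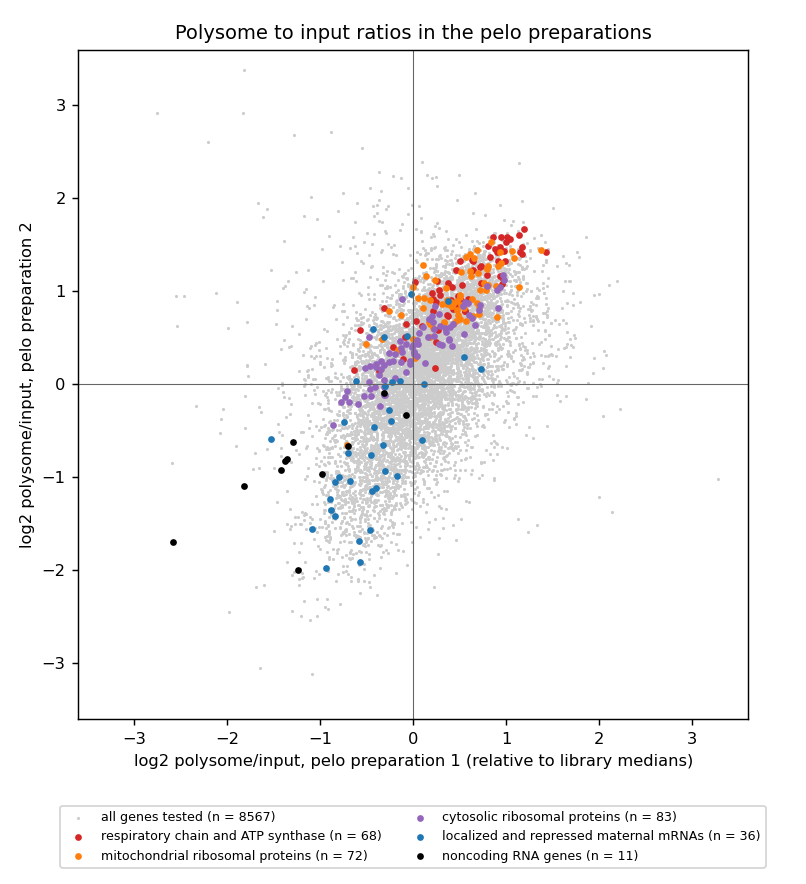
Each point is a gene, with its log2 polysome to input ratio in pelo preparation 1 on the x axis and in preparation 2 on the y axis, both relative to library medians. Respiratory chain and mitochondrial ribosomal protein genes lie towards the upper right and noncoding RNA genes towards the lower left, while cytosolic ribosomal protein genes run from below 0 to above 1 along the diagonal.

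Noncoding RNAs had the lowest fitted median of any gene list, at -1.08. lncRNA:CR45102, the gene that passed, was at 10.5 and 9.85 TPM in polysomes and 51.2 and 80.5 TPM in inputs. It fell by 2.21 on the log2 scale (SE 0.22, adjusted p = 0.0341, n = 2 pairs), with no overlap between fractions. The fall was not particular to pelo: in control its ratios were -1.77 and -1.62, and in tst RNAi -0.24 and -0.02. It kept its direction under every alternative run, but its adjusted p was 0.0959 without pelo preparation 1, 0.271 without pelo preparation 2, 0.127 and 0.126 without tst RNAi preparation 1 or 2, 0.0741 with no block and 0.0645 with no variance trend, and under the others it ran from 9.94e-10 to 0.0398. Its place on the X chromosome in RefSeq's Release 6 annotation (X:3701857-3703285) starts 184 bases beyond the end of Mnt (X:3671801-3701672), which encodes a partner of the Max transcription factor. Mnt had the lowest ratio of all protein-coding genes, with 7.67 and 3.70 TPM in polysomes and 30.4 and 52.7 TPM in inputs (log2 ratio -2.35, SE 0.35, adjusted p = 0.0517). Whether reads of these neighbours stem from 1 longer transcript was not tested.

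Of 32 listed noncoding RNA genes 11 could be tested, and all 11 had ratios below 0 in both pelo preparations, with medians of -1.30 and -0.83. lncRNA:CR40469 was at 268 and 306 TPM in polysomes against 1857 and 1366 TPM in inputs (log2 ratio -2.13, SE 0.27, adjusted p = 0.0517). Its polysome values lay far below both inputs. lncRNA:CR34335, which lies inside the span of DIP-alpha, was at 48.1 and 31.5 TPM in polysomes and 133 and 177 TPM in inputs. The Uhg genes are spliced hosts whose introns carry small nucleolar RNAs and whose exons are not known to encode protein. All 6 that were tested had ratios below 0 in both pelo preparations, against 26.7% of all genes. Their fitted ratios ran from -1.45 for Uhg2 (51.9 and 64.8 TPM in polysomes, 214 and 192 TPM in inputs) to -0.96 for Uhg8 (38.5 and 51.1 TPM, against 111 and 109 TPM). Uhg5, the most abundant of them, was at 91.1 and 130.6 TPM in polysomes against 284 and 342 TPM in inputs. The heat shock RNA gene lncRNA:Hsromega had ratios of only -0.32 and -0.10, at 3.56 and 3.31 TPM in polysomes and 5.55 and 5.35 TPM in inputs. lncRNA:noe and lncRNA:CR31044 were below 2 TPM in all 4 libraries, too low to give a direction. Of the 11 genes 8 passed as lower in both fits that leave out 1 control preparation, against 10.8% of all genes.

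Genes taken by annotation rather than by list had the same direction. All 187 tested genes annotated as lncRNA had a median pelo ratio of -0.20, with 73 below 0 in both pelo preparations and 36 above, and control medians of 0.40 and 0.35. Most are weakly expressed, and centring draws such genes to higher ratios in control than in pelo. The control medians therefore cannot be read as a difference from pelo. For 37 of them the higher of the pelo polysome mean and the pelo input mean was at least 10 TPM. Of these 21 were below 0 in both pelo preparations and 5 above, and their median ratio was -0.68. A gene could pass this filter through 1 fraction alone, which favours large ratios, and how far that moved the median was not tested. The 6525 protein-coding genes at the same level had a median of 0.17, with 1831 below 0 in both and 3143 above. At that level the lncRNA medians in preparations 1 and 2 were -0.71 and -0.72 in pelo, -0.16 and -0.04 in tst RNAi and -0.05 and -0.58 in control. The 37 genes were chosen on the pelo libraries alone, so the genotypes are not on equal terms here. No test was made of the difference between genotypes as a group.

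Among protein-coding genes, those with long spans had low ratios. The span is the genomic length with introns, since transcript lengths were not used here. The median pelo ratio was 0.48 for the 826 genes under 1 kb, 0.43 from 1 to 2 kb, 0.20 from 2 to 5 kb, -0.12 from 5 to 10 kb, -0.27 from 10 to 20 kb, -0.37 from 20 to 50 kb and -0.59 for the 205 genes of 50 kb or more. It declined with every class. The relation was closer in pelo preparation 2, where Spearman's rho across 8243 genes was -0.63, than in preparation 1, where it was -0.22. Control gave -0.44 and -0.55 and tst RNAi -0.48 and -0.27, so the order by span was not particular to pelo. Genes are not independent replicates, and these values describe the libraries.

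**Figure D2:**
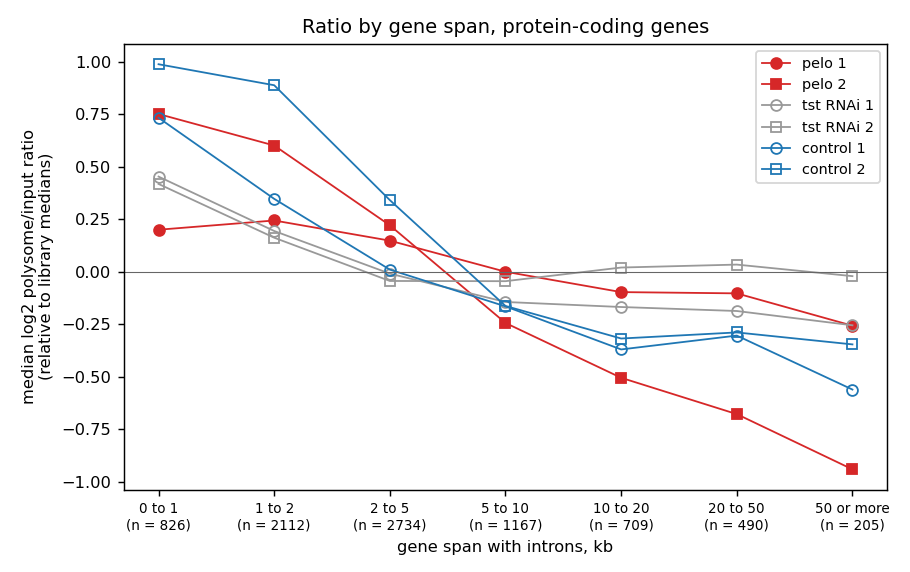
Median log2 polysome to input ratio of protein-coding genes (y axis, relative to library medians) by class of gene span in kb (x axis), for each preparation of pelo, tst RNAi and control. In pelo preparation 2 the medians run from 0.75 in the shortest class to -0.94 in the longest, and in preparation 1 from 0.20 to -0.26.

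Of the protein-coding genes with the lowest ratios, 3 are given here, chosen after their values were seen. Nipped-B, the loader of the cohesin ring, was at 17.5 and 15.6 TPM in polysomes and 63.9 and 101 TPM in inputs (log2 ratio -1.88, SE 0.24, adjusted p = 0.0517). zip, non-muscle myosin heavy chain, was at 29.3 and 30.8 TPM in polysomes and 85.8 and 125 TPM in inputs. Vps11, a subunit of vacuole tethering complexes, was at 17.8 and 18.5 TPM in polysomes and 60.2 and 79.0 TPM in inputs. For all of these the polysome libraries lay below both inputs, and the share of all genes that do so is not given here.

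Maternal mRNAs that are stored or localized in the oocyte were mostly low on polysomes. Of 41 listed genes 36 were tested, 24 with ratios below 0 in both pelo preparations and 4 above, with list medians of -0.43 and -0.62. In the fits without 1 control preparation 15 passed as lower and 1 as higher in both. osk, whose protein builds the germ plasm at the posterior pole and whose mRNA is repressed until it arrives there, was at 235 and 171 TPM in polysomes and 503 and 602 TPM in inputs (log2 ratio -1.12, SE 0.33, adjusted p = 0.0804). nos, which encodes a translational repressor of the posterior pole, was at 91.5 and 77.5 TPM in polysomes and 172 and 179 TPM in inputs. CycB, the mitotic cyclin whose mRNA Nanos and Pumilio repress, was at 489 and 357 TPM in polysomes against 1011 and 1018 TPM in inputs. pgc, which silences transcription in the embryo's pole cells, was at 48.9 and 65.3 TPM in polysomes and 165 and 136 TPM in inputs. In each case the polysome and input libraries did not overlap, and the share of all genes without overlap is not given here.

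Of the genes of this list that encode proteins acting on maternal RNA, 3 with low ratios, chosen after their values were seen, were smg, stau and tud. smg, the repressor of nos in the embryo, was at 103 and 56.3 TPM in polysomes and 228 and 310 TPM in inputs (log2 ratio -1.45, SE 0.38, adjusted p = 0.067). stau, which carries osk and bicoid mRNA, was at 15.1 and 12.5 TPM in polysomes and 38.4 and 53.7 TPM in inputs. tud, a scaffold of germ granules, had ratios of -0.57 and -1.91. Some maternal genes stood on the other side. png, the kinase that relieves repression at egg activation, was at 73.0 and 73.3 TPM in polysomes and 65.0 and 53.9 TPM in inputs, and the Piwi family gene aub had ratios of 0.54 and 0.30. Hsp83, whose mRNA is abundant throughout the egg, was at 1513 and 1519 TPM in polysomes and 1921 and 2045 TPM in inputs, which is close to the median change of the library (ratios -0.14 and 0.03).

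Regulators of the step from stem cell to cyst showed the same direction. Of 21 listed genes 19 were tested, with 14 below 0 in both pelo preparations and 3 above. List medians were -0.30 and -0.91, so the deviation was larger in preparation 2. mei-P26, a TRIM protein that limits growth in differentiating cysts, was at 2.80 and 1.68 TPM in polysomes and 8.03 and 13.9 TPM in inputs (log2 ratio -1.53, SE 0.30, adjusted p = 0.0517). brat, a translational repressor that acts with Pumilio, was at 13.1 and 9.13 TPM in polysomes and 27.0 and 39.3 TPM in inputs. pum itself was at 11.8 and 6.95 TPM in polysomes and 21.2 and 34.2 TPM in inputs. orb, the activator of stored oocyte mRNAs, was at 40.2 and 24.4 TPM in polysomes and 64.6 and 103 TPM in inputs, and bru1, the repressor of osk, at 95.2 and 80.3 TPM against 177 and 229 TPM. nos, pum, orb and bru1 belong to both lists, so the lists are not independent. bam, the switch of differentiation, had less separation, with 16.5 and 15.1 TPM in polysomes and 23.9 and 35.5 TPM in inputs (log2 ratio -0.51, adjusted p = 0.194). otu was at 173 and 96.8 TPM in polysomes and 225 and 276 TPM in inputs, and vig2, the other abundant member, at 864 and 809 TPM against 948 and 1019 TPM, with ratios of 0.07 and 0.13. bam's partner bgcn was near 1 to 2 TPM in every pelo library.

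Ring canals join nurse cells to the oocyte, and 8 of 9 tested genes of the canals and of nurse cell actin bundles were below 0 in both preparations, with none above. sn, the fascin that bundles nurse cell actin, was at 26.7 and 24.1 TPM in polysomes and 56.5 and 69.4 TPM in inputs (log2 ratio -0.94, adjusted p = 0.0905). cher, the filamin of the canal rim, was at 18.5 and 14.1 TPM in polysomes and 29.2 and 45.2 TPM in inputs. hts, the adducin of the fusome and canals, had ratios of -0.34 and -0.87. The abundant profilin gene chic was at 330.3 and 361 TPM in polysomes and 487 and 590 TPM in inputs, and tum, a regulator of cytokinesis, at 60.1 and 50.6 TPM against 80.7 and 85.4 TPM.

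Genes of the mitochondria had high ratios. Of 68 tested genes of the respiratory chain and ATP synthase 60 were above 0 in both pelo preparations and none below, against 45.1% and 26.7% of all genes, and 50 passed as higher in both fits without 1 control preparation. List medians were 0.51 and 1.08. ND-18, a subunit of complex I, was at 336 and 294 TPM in polysomes and 143 and 150.1 TPM in inputs (log2 ratio 1.43, SE 0.22, adjusted p = 0.0517). ATPsynO, in the stalk of ATP synthase, was at 1050.1 and 1009 TPM in polysomes against 530 and 437 TPM in inputs. The most abundant members differed less. ATPsynC was at 2683 and 3036 TPM in polysomes and 2382 and 2512 TPM in inputs, and ATPsynbeta at 1665 and 2040 TPM against 1454 and 1500 TPM.

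Mitochondrial ribosomal protein genes behaved in a like way, with 64 of 72 above 0 in both pelo preparations, 1 below, and medians of 0.50 and 0.91. mRpL50 was at 200 and 191 TPM in polysomes and 88.7 and 96.2 TPM in inputs (log2 ratio 1.41, SE 0.20, adjusted p = 0.0517). The abundant mRpL12 was at 324 and 334 TPM in polysomes and 231 and 201 TPM in inputs, and mRpS10 at 260 and 259 TPM against 192 and 214 TPM. In the fits without 1 control preparation 56 of the 72 passed as higher and 1 as lower. GatA, part of the enzyme that makes glutamine-charged tRNA in mitochondria, was among the leading genes, with 69.1 and 55.9 TPM in polysomes and 29.7 and 31.1 TPM in inputs.

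The proteasome, the cell's main protein-degrading machine, had 24 of 31 tested subunit genes above 0 in both pelo preparations and none below. Its medians were 0.43 and 1.14. Prosbeta6, a subunit of the catalytic core, was at 781 and 848 TPM in polysomes and 435 and 356 TPM in inputs (log2 ratio 1.38, SE 0.37, adjusted p = 0.0674). Prosalpha2, of the outer rings, was at 743 and 751 TPM in polysomes against 517 and 444 TPM in inputs. The control preparations disagreed on this list, with medians of -0.74 and 1.52, so no single control level could be set beside pelo.

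Eggshell and yolk genes, which follicle cells express, were high on polysomes. Vm26Ab, a structural protein of the vitelline membrane, was at 8158 and 6229 TPM in polysomes and 3327 and 2312 TPM in inputs (log2 ratio 1.70, SE 0.28, adjusted p = 0.0517), with no overlap. Vm34Ca was at 11537 and 13682 TPM in polysomes and 7809 and 5322 TPM in inputs, and Vm26Aa at 7957 and 8404 TPM against 6208 and 3813 TPM. Vml was at 629 and 573 TPM in polysomes and 320 and 235 TPM in inputs, and yellow-g, needed for eggshell crosslinking, at 1184 and 983 TPM against 526 and 443 TPM. Of 20 tested genes 14 were above 0 in both preparations and 4 below, with medians of 0.52 and 1.61. The clearest exception was ndl, a large protease of the dorsoventral pathway secreted with this layer, at 7.94 and 7.66 TPM in polysomes and 17.5 and 28.4 TPM in inputs (log2 ratio -1.07).

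Chorion genes had 14 of 20 above 0 in both preparations and 2 below. Cp36 was at 7347 and 4803 TPM in polysomes and 3315 and 3274 TPM in inputs (log2 ratio 1.19, SE 0.42, adjusted p = 0.111), and Cp38 at 8317 and 4827 TPM against 4025 and 4133 TPM. Cp15 was at 5808 and 6770 TPM in polysomes and 4417 and 3449 TPM in inputs, and Cp16 at 1850 and 1647 TPM against 964 and 929 TPM. These 4 lie in amplified clusters and encode the main proteins of the outer shell. Among the yolk genes, Yp1 was at 6760 and 7611 TPM in polysomes and 5389 and 4141 TPM in inputs, Yp2 at 8428 and 8486 TPM against 6440 and 4767 TPM, and Yp3 at 1234 and 1412 TPM against 1195 and 835 TPM. The yolk receptor gene yl, which the oocyte expresses, stood on the other side, with ratios of -0.50 and -0.21. The germline and follicle cell marker sums given above moved in these same directions, since several of these genes belong to them.

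**Figure D3:**
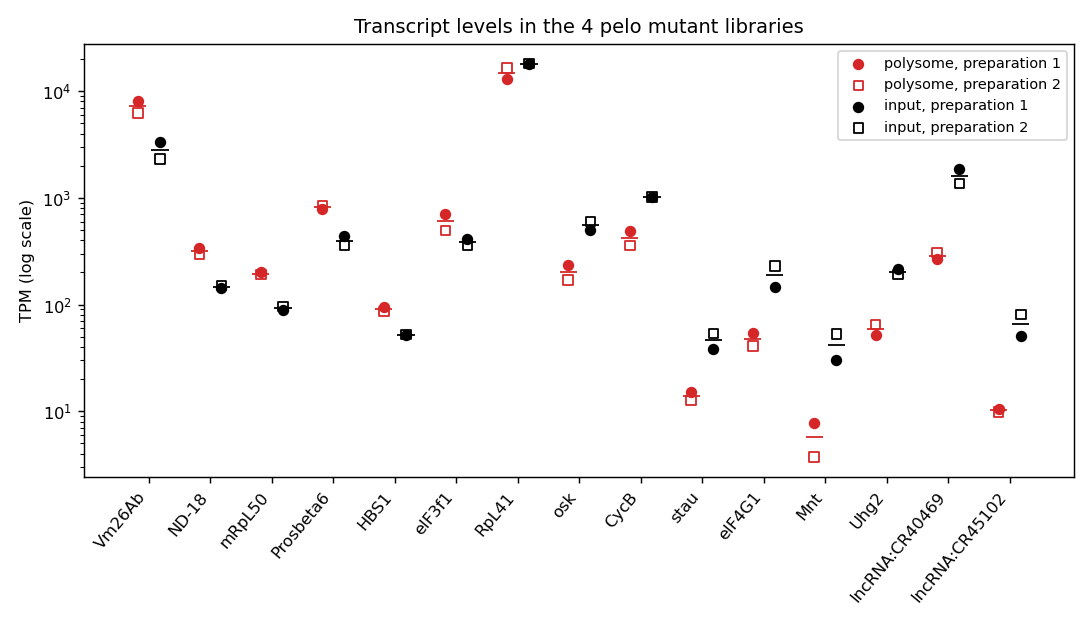
TPM on a log scale (y axis) of 15 genes (x axis) in the 2 polysome and 2 input libraries of pelo ovaries, with polysomes on the left of each pair and a bar at each mean. Polysome values lie above inputs from Vm26Ab to eIF3f1 and below them from osk to lncRNA:CR45102, and RpL41 lies at 13034 and 16543 TPM in polysomes and at 18003 and 18103 TPM in inputs.

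Cytosolic ribosomal proteins are made from short, highly abundant mRNAs whose 5′ ends carry a tract that ties their translation to growth signals. In pelo their ratios stood close to the library median, with list medians of 0.01 and 0.41 over 83 genes against 0.11 and 0.20 over all genes, and a fitted median of 0.18 that turned to -0.16 on values as deposited and -0.07 after quantile normalization. Both ratios were above 0 for 42 genes and below 0 for 14, near the shares of all genes. The most abundant, RpL41, was at 13034 and 16543 TPM in polysomes and 18003 and 18103 TPM in inputs, and RpS27A at 7744 and 9384 TPM against 11787 and 11105 TPM. Ratios ranged from -0.86 to 0.98 in preparation 1 and from -0.44 to 1.18 in preparation 2. Many of these genes have close copies or pseudogenes that share reads, so single members are uncertain.

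The other genotypes differed from pelo in opposite directions for this list. Medians in tst RNAi were -0.90 and -0.51, and in control 1.30 and 1.29. Both pelo ratios lay above both tst RNAi ratios for 74 of 83 genes (34.8% of all genes) and below both control ratios for 80 of 83 (19.4% of all genes). The 3 exceptions against control were RpL5, RpL38 and RpS3A. On values as deposited the counts were 63 above tst RNAi (11% of all genes on that scale) and 69 below control (5.61%). After quantile normalization they were 48 (30% of all genes) and 49 (14.2%). No gene passed the test of the difference from either genotype (smallest adjusted p in the list 0.391 against tst RNAi and 0.439 against control). Both differences use the same pelo libraries, so they are not independent.

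**Figure D4:**
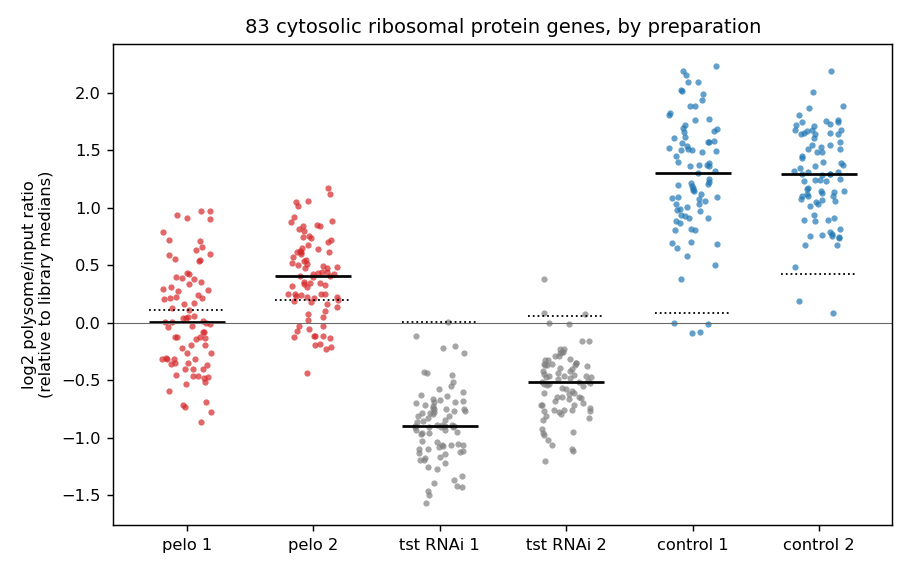
Each point is 1 of 83 cytosolic ribosomal protein genes, with its log2 polysome to input ratio relative to library medians on the y axis and the preparation on the x axis. Solid bars are medians of the list and dotted bars medians of all genes: the list sits at 0.01 and 0.41 in pelo, -0.90 and -0.51 in tst RNAi and 1.30 and 1.29 in control.

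Translation factors split by complex. Of 32 tested genes 20 were above 0 in both pelo preparations and 5 below, with medians of 0.29 and 0.31 and a fitted median of 0.30 that turned to -0.03 on values as deposited and -0.13 after quantile normalization. The subunits of eIF3, the large complex that holds the small ribosomal subunit during initiation, made up much of the upper side: 11 of 13 were above 0 in both preparations and none below (a subset picked after its values were seen). eIF3f1 was at 709.7 and 495 TPM in polysomes and 407 and 363 TPM in inputs (log2 ratio 0.96, SE 0.23, adjusted p = 0.06), and eIF3e at 983 and 740.3 TPM against 584 and 584 TPM. At the other end stood the scaffold that links cap and tail. eIF4G1 was at 54.0 and 41.0 TPM in polysomes and 146 and 228 TPM in inputs (log2 ratio -1.60, SE 0.24, adjusted p = 0.0517), its relative eIF4G2 at 5.99 and 2.71 TPM against 11.1 and 21.2 TPM, and pAbp, the poly(A) binding protein, at 646 and 578 TPM against 1344 and 1998 TPM. The elongation factors were near the median: eEF1alpha1 was at 19524 and 15034 TPM in polysomes and 16705 and 17535 TPM in inputs, and eEF2 at 5841 and 4438 TPM against 5549 and 5642 TPM, with overlap in both cases.

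Pelota's own partners were measured too. HBS1 (3L:1862881-1865240), which encodes its GTPase partner, was at 93.9 and 86.1 TPM in polysomes and 51.3 and 52.4 TPM in inputs (log2 ratio 1.12, SE 0.27, adjusted p = 0.0628), with no overlap. pix, the ribosome-splitting ATPase, was at 480 and 377 TPM in polysomes and 391 and 427 TPM in inputs, and eRF1, the stop codon release factor that Pelota resembles, at 254 and 256 TPM against 285 and 316 TPM. Clbn, a quality control factor of stalled large subunits, had ratios of -1.01 and -0.71 (log2 ratio -0.86, SE 0.21, adjusted p = 0.0619). tst, the Ski2 helicase, had ratios of -0.04 and -0.09, close to the library median. Over the 20 tested genes of rescue and no-go decay 13 were above 0 in both preparations and 4 below.

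Within that list the exosome, the complex that degrades RNA from the 3′ end, stood out when its members were picked after their values were seen: 9 of 10 subunits were above 0 in both preparations and 1 below. Rrp46 was at 180 and 179 TPM in polysomes and 94.8 and 95.6 TPM in inputs (log2 ratio 1.24, SE 0.25, adjusted p = 0.0517), and Rrp40 at 106 and 96.9 TPM against 55.0 and 51.7 TPM. The exception was Rrp6, the nuclear nuclease, with 32.9 and 24.9 TPM in polysomes and 42.2 and 50.5 TPM in inputs. Deadenylation and decapping genes were divided, 6 above and 8 below among 16. Edc3, a decapping activator, was at 14.4 and 9.42 TPM in polysomes and 33.0 and 49.3 TPM in inputs (log2 ratio -1.37, adjusted p = 0.0517), Not1, the scaffold of the CCR4-NOT deadenylase, at 29.1 and 20.5 TPM against 50.6 and 87.3 TPM, and tral, a repressor in germline granules, at 336 and 386 TPM against 772 and 942 TPM. Not10, a small subunit of that deadenylase, was at 70.6 and 50.9 TPM in polysomes against 40.6 and 44.1 TPM in inputs. The helicase me31B, which works with tral, had ratios of -0.70 and 0.07, so its preparations disagreed.

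Among the lists of this paragraph, 2 leaned to polysomes, with fitted medians that shrank under other scalings but stayed above 0. Genes of endoplasmic reticulum entry and secretion had 29 of 37 above 0 in both preparations and 3 below. Their fitted median of 0.52 was 0.18 on values as deposited and 0.10 after quantile normalization. Ost48, a subunit of the glycosylating enzyme, was at 329 and 279 TPM in polysomes and 176 and 166 TPM in inputs. Nucleolar genes had 18 of 23 above and 1 below. Their fitted median of 0.43 was 0.10 on values as deposited and 0.06 after quantile normalization. Nop56, a core protein of small nucleolar particles, was at 708 and 778 TPM against 476 and 523 TPM. Splicing genes had 15 of 33 above and 8 below, and their fitted median of 0.22 turned to -0.11 on values as deposited and -0.09 after quantile normalization. Heat shock genes had 10 of 24 above and 5 below, nonsense mediated decay genes 5 of 9 above and 2 below, and cell death and antioxidant genes 13 of 21 above and 4 below, and each of these 3 medians turned below 0 on values as deposited, the first 2 after quantile normalization as well. piRNA genes had 13 of 32 above and 12 below, meiosis genes 7 of 24 above and 11 below, cytoskeletal genes 7 of 25 above and 8 below, and replication and cell cycle genes 9 of 30 above and 13 below, with PCNA, the sliding clamp, at 566 and 575 TPM against 429 and 423 TPM.

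Translation of some stress genes is set by upstream reading frames. The list used here holds such genes along with others grouped with the integrated stress response, so membership does not imply control by an upstream frame. Of its genes 10 could be tested, 3 above 0 in both and 3 below. Thor, the eIF4E inhibitor, was at 568 and 663 TPM in polysomes and 484 and 477 TPM in inputs, and InR, the insulin receptor, at 2.79 and 1.10 TPM against 5.31 and 11.5 TPM. Lists for other cell types were mixed: early follicle and niche genes had 3 of 24 above and 11 below, muscle sheath genes 7 of 23 above and 4 below, hemocyte and basement membrane genes 5 of 19 above and 6 below, fat body, gut and oviduct genes 8 of 12 above and 2 below, and testis genes 8 of 10 above and 1 below. SPARC, a matrix glycoprotein of hemocytes, was at 474 and 320 TPM in polysomes and 166 and 224 TPM in inputs, and the muscle actin Act57B at 2252 and 1477 TPM against 1503 and 1933 TPM, with overlap.

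**Figure D5:**
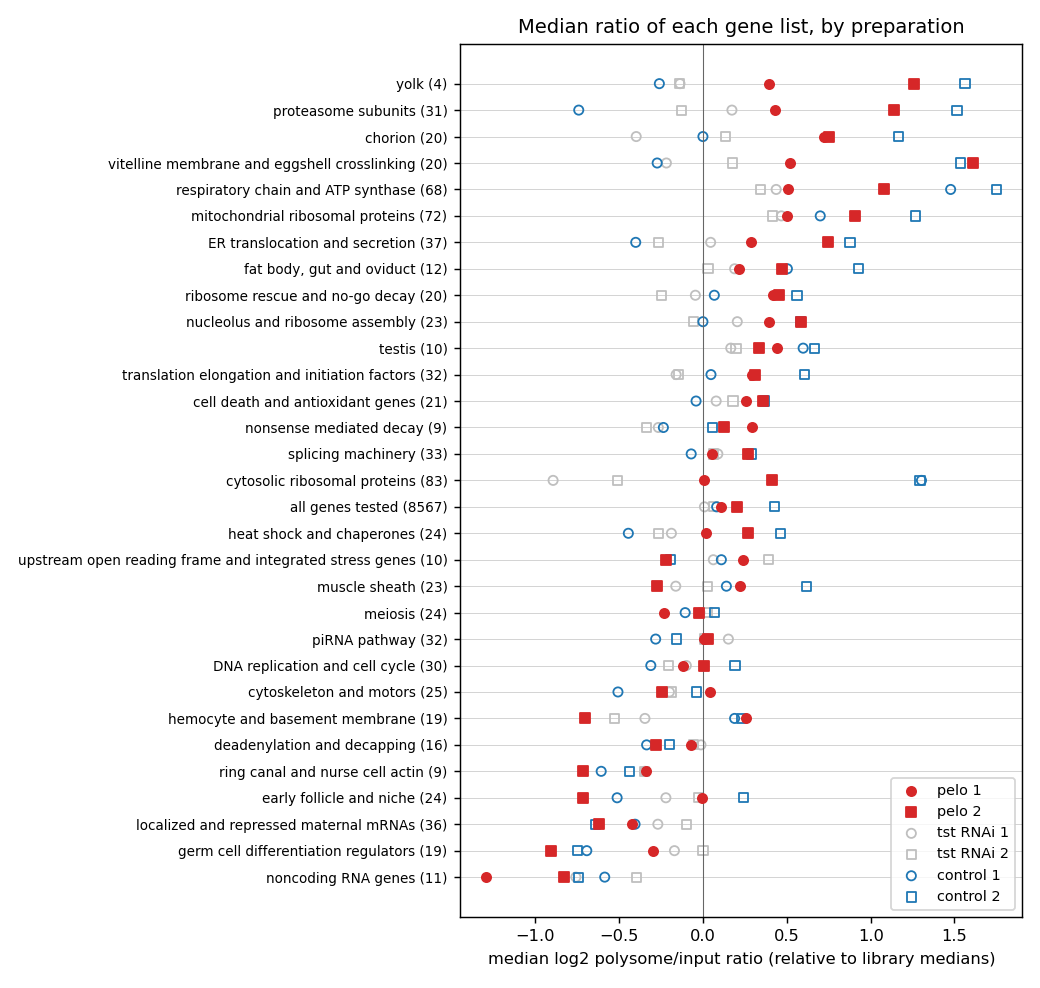
Median log2 polysome to input ratio relative to library medians (x axis) of each gene list (y axis, with the number of genes tested), for each preparation of pelo, tst RNAi and control. Lists are ordered by their fitted pelo median. Noncoding RNA genes, at the bottom, have pelo medians of -1.30 and -0.83, the 4 yolk genes, at the top, have 0.39 and 1.26, and the control preparations lie far apart for proteasome, eggshell and yolk genes.

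The last question was whether these ratios differed from those of the other genotypes. Against control no gene passed the test of the difference (limma interaction, 0.0% of genes, smallest adjusted p = 0.427), and 529 did at an unadjusted p under 0.05, 25 with a higher and 504 with a lower pelo ratio. The direction turned with the scaling: on values as deposited 1140 genes did, 1007 higher and 133 lower. The median difference over all genes was -0.05 after centring and 0.40 on values as deposited. A fit without 1 control preparation sets pelo against 1 control pair, whose own error cannot be told from a difference. Over all genes the median difference was -0.21 without control preparation 1 and 0.03 without control preparation 2, the pelo1/CyO heterozygote. Both pelo ratios lay below both control ratios for 19.4% of genes and above both for 7.66%. On values as deposited 5.61% of genes lay below both. The list counts that follow hold for centred values only and would move with the scaling. Respiratory chain genes had 42 of 68 below and none above, and mitochondrial ribosomal protein genes 25 of 72 below and 1 above, although their pelo ratios were themselves above 0. Maternal mRNAs had 2 of 36 below and 2 above, and germ cell regulators none of 19 on either side. CG12929 had one of the smallest adjusted p values, with a difference of -2.23 (adjusted p = 0.427): its ratios were 0.79 and 0.45 in pelo and 2.91 and 2.77 in control. CG34134 had ratios of -0.96 and -0.66 in pelo and 1.54 and 1.20 in control. Irbp18, a leucine zipper protein, stood on the other side, with 0.30 and 0.97 in pelo and -0.78 and -0.49 in control. Across genes, the ratios of pelo preparation 2 correlated at 0.804 with control preparation 2 and at 0.44 with control preparation 1, and those of pelo preparation 1 at 0.584 and 0.356.

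Against tst RNAi no gene passed either (0.0% of genes, smallest adjusted p = 0.391), and 1020 did at an unadjusted p under 0.05, 549 higher and 471 lower in pelo. This split too depended on the scaling: on values as deposited 1488 genes did, 81 higher and 1407 lower. The median difference over all genes was 0.10 after centring and -0.32 on values as deposited. Without control preparation 1 or 2, which enter only through the spread, 319 and 326 genes passed. Both pelo ratios lay above both tst RNAi ratios for 34.8% of genes and below both for 21.8%. On values as deposited 11% of genes lay above both, and the list counts given below hold for centred values only. The spread of ratios over genes was also wider in pelo, with SDs of 0.55 and 0.74, than in tst RNAi, with 0.39 and 0.40. Proteasome genes had 22 of 31 above and none below, and respiratory chain genes 43 of 68 above and 4 below. Maternal mRNAs had 21 of 36 below and 7 above, and germ cell regulators 13 of 19 below and 1 above. regucalcin had ratios of 1.68 and 1.28 in pelo and -0.09 and -0.39 in tst RNAi (difference 1.72, adjusted p = 0.391), and Lrpprc2, a mitochondrial RNA-binding protein, 1.61 and 1.01 in pelo and -0.28 and -0.44 in tst RNAi. wisp, the poly(A) polymerase that lengthens tails of maternal mRNAs, had -1.07 and -1.66 in pelo and 0.00 and 0.67 in tst RNAi (difference -1.70), and stau -1.09 and -1.55 in pelo and 0.12 and 0.72 in tst RNAi.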

How the data were processed

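Libraries came from bead-selected poly(A) RNA and a directional kit, and polysome samples had passed a gradient before extraction, per the labels' protocols. HISAT2 2.0.5, featureCounts 1.5.1 and dm6 are named by the submitters' processing notes. Which gradient fractions were pooled, which annotation and strand setting were used for counting, and how TPM were computed is not given in the sources used here. Values were deposited as log2 TPM, per the file headers. Raised from log2 and less 0.5 they sum to the same total over 9251 genes in every library, so they were read as log2(TPM + 0.5) and turned to TPM.

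From there log2(TPM + 1) was used, less each library's median. The 8572 genes with at least 1 TPM in 2 of 12 libraries were tested with limma 3.58.1 (R 4.3.3), with a trend in the variance, 12 libraries of 3 genotypes sharing the spread (3 residual degrees of freedom), the preparation as a block and Benjamini-Hochberg adjustment at 0.05. Differences between genotypes were interaction terms. The code was tested on simulated data. Names of 5 genes had turned into dates, and these were not named or counted in lists.

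The labels call each input the counterpart of its polysome sample, which gives the pairing. Deviations of same-numbered input and polysome libraries from their group means correlated at -0.449 in pelo, 0.531 in tst RNAi and 0.499 in control, so the numbers of the pelo libraries are not borne out by the values. Ratios per preparation rest on that pairing, while the fitted log2 ratios do not.

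Lists and genes were chosen with earlier results of these data known. The genes named were pelo, HBS1, the leading genes that passed, the members of each list with the highest TPM where none passed, and for each difference those with the smallest adjusted p. Other genes were chosen after their values were seen. Symbols were matched to RefSeq's table for Release 6, 8664 directly and 555 by an older name, and 27 had no match. Alternatives were no centring, quantile normalization, pseudocounts of 0.5 and 5, other filters, no block, the pelo libraries alone, each preparation left out, and no trend. Figures were drawn with matplotlib 3.10.9.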

Additional observations from a re-analysis of the deposited data

Results flagged for a closer look

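For some lists every pelo preparation's median ratio lay on one side of 0 and every preparation of another genotype on the other. The differences of these list medians were not tested. Against tst RNAi the median difference of the members (pelo less tst RNAi, log2) was 0.93 for cytosolic ribosomal proteins, 0.82 for yolk genes, 0.45 for ribosome rescue and no-go decay, 0.38 for translation factors, 0.37 for heat shock genes and 0.13 for nonsense mediated decay genes. Against control it was 0.16 for piRNA genes. The pelo libraries are shared by all 7 values. Several pelo medians lie close to 0, at 0.01 and 0.03 for piRNA genes and, in preparation 1, at 0.01 for cytosolic ribosomal proteins and 0.02 for heat shock genes. The side of 0 also depends on the scaling: on values as deposited the fitted pelo medians were -0.16 for ribosomal proteins, -0.03 for translation factors, -0.25 for heat shock genes and -0.10 for nonsense mediated decay genes.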

How the results depend on the processing

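The count of 1 gene in pelo polysome against input was 1 with a pseudocount of 0.5 and with no filter, but 506 on values as deposited, 632 after quantile normalization, 700 with a pseudocount of 5, 383 with a mean of at least 5 TPM, 1703 from the pelo libraries alone (1 residual degree of freedom) and 201 when each preparation was centred on its median ratio, an alternative chosen after seeing the data. It was 0 without a trend in the variance and 0 with no replicate block. Because same-numbered pelo libraries deviated in opposite directions, the pairing was also crossed after seeing the data, and 1183 genes then passed, 626 higher and 557 lower. Leaving out 1 preparation gave 0 to 2672 genes for pelo, 0 to 718 for the difference from control and 0 to 326 for the difference from tst RNAi. Those 2 differences gave 0 under every other alternative run, the block included. Genes at least 2-fold higher in both pelo preparations (120) were 7 on values as deposited, 56 with a pseudocount of 5, 61 with a mean of at least 5 TPM, 53 when centred on median ratios and 170 with the numbers crossed. Those 2-fold lower (67) were 241 on values as deposited, 128 after quantile normalization, 28 with a pseudocount of 5, 138 when centred on median ratios and 189 with the numbers crossed. The cause of these moves was not tested.

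Some genes near 0 changed sign. On values as deposited RpL41 was at -0.30, eEF2 at -0.14, eRF1 at -0.24 and vig2 at -0.23. After quantile normalization RpL41 was at -0.16, eEF2 at -0.24, eRF1 at -0.36, vig2 at -0.29, pix at -0.078 and tst at 0.04. Centred on median ratios, RpL41 was at -0.12, eRF1 at -0.054 and vig2 at -0.052. With a pseudocount of 5 RpL41 was at -0.0022, lncRNA:CR31044 at 0.12 and lncRNA:noe at 0.017, and with a mean of at least 5 TPM RpL41 was at -0.034. Between leaving out pelo preparation 2 and preparation 1, Hsp83 ran from -0.14 to 0.035, RpL41 from -0.26 to 0.33, RpS27A from -0.40 to 0.22 and me31B from -0.70 to 0.074. Of the list medians under alternatives, 193 moved by less than the spread between pelo preparations and 77 by more. Classes of protein length were not run, since no protein table was used here. With TPM alone, no interval for counting error could be given.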
